A study of Mus musculus with 27 samples.

Results

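Ovaries of aged mice that had been given TRi-1 were compared with ovaries of young untreated mice, to see which differences from young tissue were present in treated mice. TRi-1 is a small-molecule inhibitor of thioredoxin reductase 1 (TXNRD1), the cytosolic selenoenzyme that keeps thioredoxin reduced. The comparison holds 9 of the 27 samples of the series: 4 ovary libraries from aged mice labelled with TRi-1 treatment and 5 from young mice with no treatment, all of the first of its 2 experiments. A further 4 libraries of that experiment, from aged untreated mice, give the age difference without treatment in the same experiment. The second experiment, with 5 aged and 5 young untreated libraries compared here, gives age differences from libraries that the TRi-1 comparison does not share. Its 4 libraries from aged mice treated with auranofin were part of the same fit but are not compared. The age in months, the strain, and the dose, route and duration of TRi-1 are not given in the sources used here, and no vehicle is named for the untreated groups. RNA came from whole ovary and was sequenced from the 3′ end of transcripts (QuantSeq). Nothing in the labels says whether libraries of a group came from separate animals, so the p-values measure the spread between these samples only. Throughout, values of single libraries are listed in the order of the replicate numbers, 1 to 5 for young and 1 to 4 for TRi-1.

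The ovary holds a finite store of oocytes, each enclosed by granulosa cells that divide, make oestradiol and respond to gonadotropins as the follicle grows. With age the follicles are used up and immune cells, among them T cells, plasma cells and macrophages filled with lipid and pigment, gather in the stroma. Thioredoxin reductase supplies electrons to peroxiredoxins, ribonucleotide reductase and other thiol enzymes, and its inhibition is known to release the transcription factor NRF2, which raises genes of thiol and haem metabolism, Txnrd1 itself among them.

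The libraries held 9183605 to 10784379 counts in the TRi-1 group, 6460903 to 10077161 in young and 9791693 to 14814381 in aged untreated ovary. Some libraries stood apart from their group. TRi-1 replicate 4 carried granulosa transcripts near the young level while the other 3 did not, and follicle results are given with and without it. TRi-1 replicates 2 and 3 were high in neutrophil transcripts and replicates 1 and 4 were not. Haemoglobin took 4.5% of the counts of TRi-1 replicate 2 against 10.8% to 12% of the other 3, 1.87% to 8.19% of young and 9.52% to 22.7% of aged libraries. Each group had 1 library high in liver transcripts: number 5 in young, 3 in untreated aged and 1 in TRi-1 ovary. Ovarian transcripts were present in every group, among them Star, Cyp11a1 and Inha, while Amh, the hormone of growing follicles, had 1 count in all 13 libraries and could not serve as a marker.

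Of 16028 genes tested, 3371 differed between TRi-1 aged and young ovary at an adjusted p below 0.05, 21.0% of all. The test was edgeR's quasi-likelihood F test with Benjamini-Hochberg adjustment, and "rose", "fell", "higher" and "lower" stand for a call by it. In TRi-1 ovary 1751 genes (10.9%) were higher and 1620 (10.1%) lower, and the median log2 difference over all genes tested was 0.01. Aged untreated ovary differed from the same young libraries at 5590 genes (34.9%), 2958 higher (18.5%) and 2632 lower (16.4%). The treated and the untreated aged groups differed from each other at 67 genes (0.418%), 28 higher (0.175%) and 39 lower (0.243%) under TRi-1, while 2650 had an unadjusted p below 0.05. 

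Of the 2958 genes higher in aged untreated ovary, 1526 (51.6%) were also higher under TRi-1, 1430 did not pass the threshold there, and 2, Nr1d1 and Pi16, were lower than young. These 2 calls against young were not stable: that of Pi16 was lost in 10 of 25 alternative settings, among them leaving out TRi-1 replicate 1, 3 or 4 or young replicate 2, 4 or 5, and that of Nr1d1 in 12, among them leaving out any 1 of the TRi-1 replicates, aged replicate 4 or young replicate 2, 3 or 4. Of the 2632 lower genes, 1274 (48.4%) were also lower and 1358 did not pass. Missing the threshold is not a return to the young level: among those 1430 and 1358 genes, the 95% interval of the TRi-1 minus young difference lay within a 2-fold change either way for 747 and 512, and 29 and 19 differed between the treated and untreated aged groups in the direction of young. Both comparisons use the same 5 young libraries, so the shared calls are a count and not a measure of likeness. Over both directions 2800 of 5590 age differences (50.1%) were shared, and 2098 of 5425 (38.7%) without TRi-1 replicate 1.

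Age genes chosen in the second experiment were followed as well, since none of their libraries enters the values given here. In that experiment 1705 of 16309 genes tested differed between aged and young ovary (10.5%), 956 higher (5.86%) and 749 lower (4.59%). Of 931 genes higher in aged ovary there and tested here, 695 (74.7%) were higher under TRi-1 and 805 (86.5%) in aged untreated ovary of the first experiment. Their median log2 difference from young was 1.72 under TRi-1 and 1.97 without it, and the median of TRi-1 minus aged was -0.25. Of 735 genes lower with age in that experiment, 473 (64.4%) were lower under TRi-1 and 615 (83.7%) in untreated aged ovary, with medians of -1.05 and -1.43, and of 0.40 for TRi-1 minus aged. TRi-1 ovary lay on the aged side of young for 909 of the 931 and 716 of the 735 genes. The log2 difference of TRi-1 minus untreated aged ovary was negative for 646 of the 931 and positive for 586 of the 735, whatever the distance from young. For 3 and 7 of these genes the treated and untreated aged groups differed past the threshold, each time in the direction of young.

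**Figure D1:**
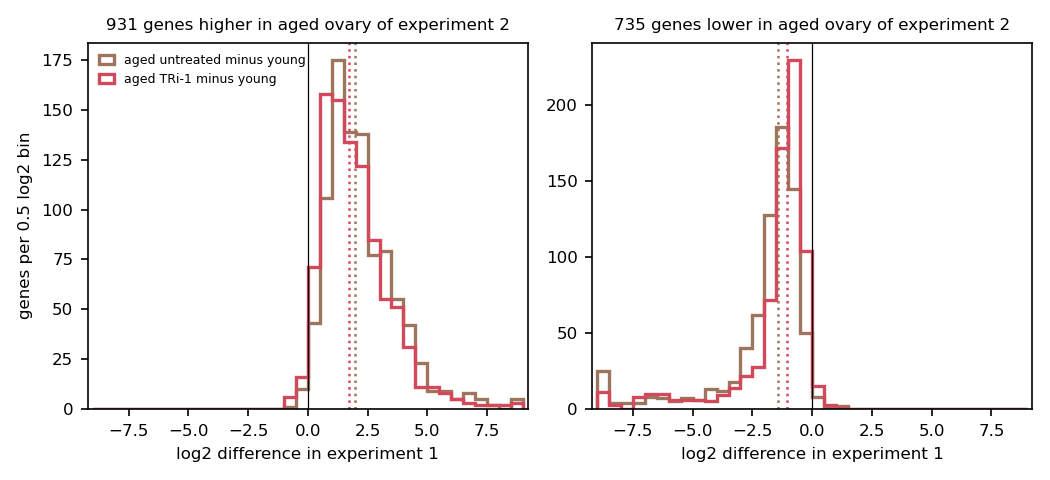
Histograms of the log2 difference from young in the first experiment, for the 931 genes higher (left) and the 735 genes lower (right) in aged ovary of the second experiment; lines are aged untreated (brown) and aged TRi-1 (red), dotted lines are the medians, and values beyond 9 either way are placed in the last bin. The 2 outlines overlap over most of their range, and the TRi-1 medians, 1.72 and -1.05, lie nearer to 0 than the untreated medians, 1.97 and -1.43.

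**Figure D2:**
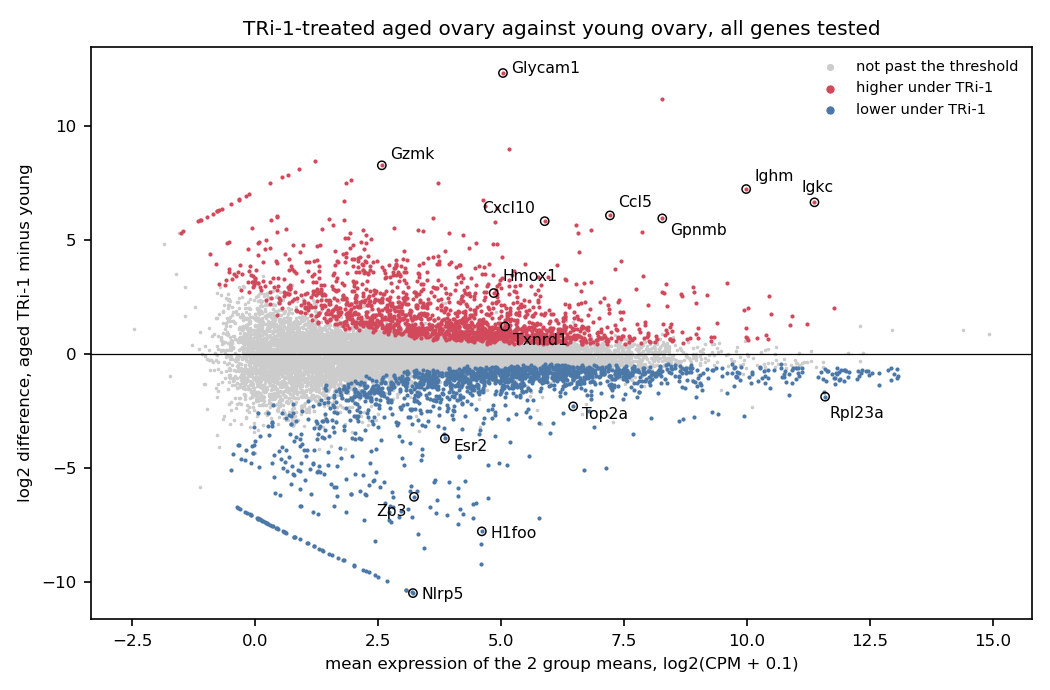
Each point is 1 of the 16028 genes tested: the x axis is the log2 of the mean of the 2 group means in CPM plus 0.1, and the y axis the fitted log2 difference of aged TRi-1 minus young; red and blue mark the 1751 genes higher and the 1620 lower. Immunoglobulin, T cell and chemokine genes lie at the top and oocyte genes at the bottom; the straight diagonal rows are genes with no count in one of the groups, whose fitted value depends on the prior count.

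Lymphocyte transcripts made up most of the largest rises. Of 23 T cell genes tested, 22 were higher under TRi-1 than in young and none lower, with a median log2 difference of 3.94 (20 higher and a median of 3.16 in untreated aged ovary). In bulk tissue a change in the number of cells of a type and a change in RNA per cell cannot be told apart, here and for every other cell type named. Levels are given as CPM, the counts of a gene scaled to a common library size. Cd3d, a chain of the T cell receptor complex, had 7.06, 4.73, 6.39, 5.12 and 4.21 CPM in young and 126, 80.3, 80.7 and 51.6 CPM in TRi-1 ovary, a log2 difference of 3.94 ± 0.35 (SE; 5 and 4 libraries; adjusted p = 4.5e-06). The 2 groups did not overlap. Cd8a, the co-receptor of cytotoxic T cells, went from 0 to 0.920 CPM in young to 15.4 to 32.2 CPM (5.39 ± 0.51, adjusted p = 6.4e-06). Trac, the constant segment of the receptor's alpha chain, was 4.54 ± 0.48 higher on the log2 scale (adjusted p = 1.5e-05).

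Of 13 genes of cytotoxic lymphocytes, 10 were higher, the number also reached in untreated aged ovary. Ccl5, a chemokine made by activated T and NK cells, had 6.24, 2.37, 3.97, 5.01 and 3.68 CPM in young libraries and 487, 333, 191 and 159 in TRi-1 libraries (6.09 ± 0.44, adjusted p = 1e-06). The untreated aged libraries held 148, 87.1, 41.2 and 108 CPM of Ccl5, below all 4 treated ones, but the difference of 1.61 between the 2 aged groups did not pass the threshold (adjusted p = 0.067). Gzmk, a granule protease that marks a T cell state common in aged tissue, had 1 count in the 5 young libraries and 510 in the 4 TRi-1 libraries, a ratio of 457 (95% counting interval 81.7 to 18105). Ifng, the cytokine interferon gamma, averaged 0.0213 CPM in young and 2.48 in TRi-1 ovary (log2 difference 6.06, adjusted p = 0.0091). Its young level was close to no count, so the size of that difference is uncertain.

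B and plasma cell genes were 25 higher and 1 lower of 30 tested, with a median log2 difference of 4.29 (4.44 in untreated aged ovary). Igkc, the constant region of the kappa light chain, had 60.7, 43.2, 78.3, 44.9 and 33.3 CPM in young ovary and 8661, 5326, 5222 and 1834 CPM under TRi-1 (6.66 ± 0.40, adjusted p = 2e-07). The lowest TRi-1 library, replicate 4, was still far above the highest young one. Ighm, the heavy chain of IgM, was 7.24 ± 0.57 higher (adjusted p = 1.9e-06), Jchain, which joins polymeric antibodies, 5.37 ± 0.35, and Mzb1, a chaperone of antibody-secreting cells, 6.42 ± 0.50. All immunoglobulin genes together took 0.0118% of the counts in young, 0.965% in TRi-1 and 1.06% in untreated aged ovary. Constant-region genes resemble one another, and the deposited counting may have divided reads among them. The 1 lower member was Derl3, an endoplasmic reticulum degradation factor (-1.63, adjusted p = 0.0034).

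Transcripts of high endothelial venules and lymphoid stroma, through which lymphocytes enter a tissue, were higher at 8 of 12 members (9 without treatment), with a median of 2.94, or 2.52 with the 2 members that had no young count set at their bound. Glycam1, a glycoprotein to which circulating lymphocytes adhere through selectins, had no count in any young library and 154, 12.3, 39.1 and 56.3 CPM under TRi-1, at least 868-fold higher against a floor of 3 counts over the young group. Ccl19 and Cxcl13, chemokines that draw T and B cells, were 5.95 ± 0.80 and 4.83 ± 0.47 higher.

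Macrophage genes were higher at 24 of 26 members under TRi-1, as in untreated aged ovary, with medians of 2.04 and 2.43. Gpnmb, a glycoprotein of lipid-laden macrophages, had 4.40, 14.5, 19.5, 5.97 and 5.52 CPM in young and 325, 547, 1065 and 508 CPM in TRi-1 ovary (5.95 ± 0.60, adjusted p = 1.1e-05). No treated library came near the young range, and the untreated aged libraries ranged from 364 to 2793 CPM. Ctss, a cathepsin of antigen-presenting cells, was 3.09 ± 0.34 higher, Cd5l, a macrophage survival factor, 3.93 ± 0.44, and Fcgr1, a high-affinity antibody receptor, 2.54 ± 0.30. The members that did not pass were Cd14 (1.59, adjusted p = 0.072) and Mrc1, the mannose receptor of resident macrophages (-0.08, adjusted p = 0.85).

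Lysosomal genes followed with 17 of 24 higher (19 in untreated aged ovary). Psap, the precursor of the saposins, was 2.04 ± 0.19 higher (adjusted p = 6.4e-06) and Ctsd, the main aspartic protease of lysosomes, 1.93 ± 0.23. Of 17 complement genes 12 were higher, as in untreated aged ovary, with medians of 1.32 under TRi-1 and 1.98 without it. C1qa, C1qb and C1qc, the chains of the initiating complex, were 2.70 ± 0.38, 2.09 ± 0.27 and 2.13 ± 0.26 higher. C3, the central component, was 1.32 ± 0.27 above young under TRi-1 (adjusted p = 0.0027) and 2.31 above it in untreated aged ovary, and the difference of -0.99 between the aged groups did not pass (adjusted p = 0.11).

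All 12 MHC class II genes tested were higher under TRi-1, with a median of 2.86 (2.95 without treatment). Cd74, the invariant chain, had 151, 131, 198, 143 and 173 CPM in young and 2216, 1498, 1131 and 698 CPM in treated ovary (3.12 ± 0.33, adjusted p = 1.6e-05). MHC class I and immunoproteasome genes were higher at 13 of 17 (11 in untreated aged ovary), led by H2-Q7 (4.48 ± 0.35) and Tap1, the peptide transporter (3.37 ± 0.27). H2-K1 had 165, 107, 79.8, 139 and 146 CPM in young against 1301, 791, 712 and 557 CPM (2.72 ± 0.25, adjusted p = 6.4e-06). The H2 genes are near-identical in stretches, so values of single members are uncertain.

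**Figure D3:**
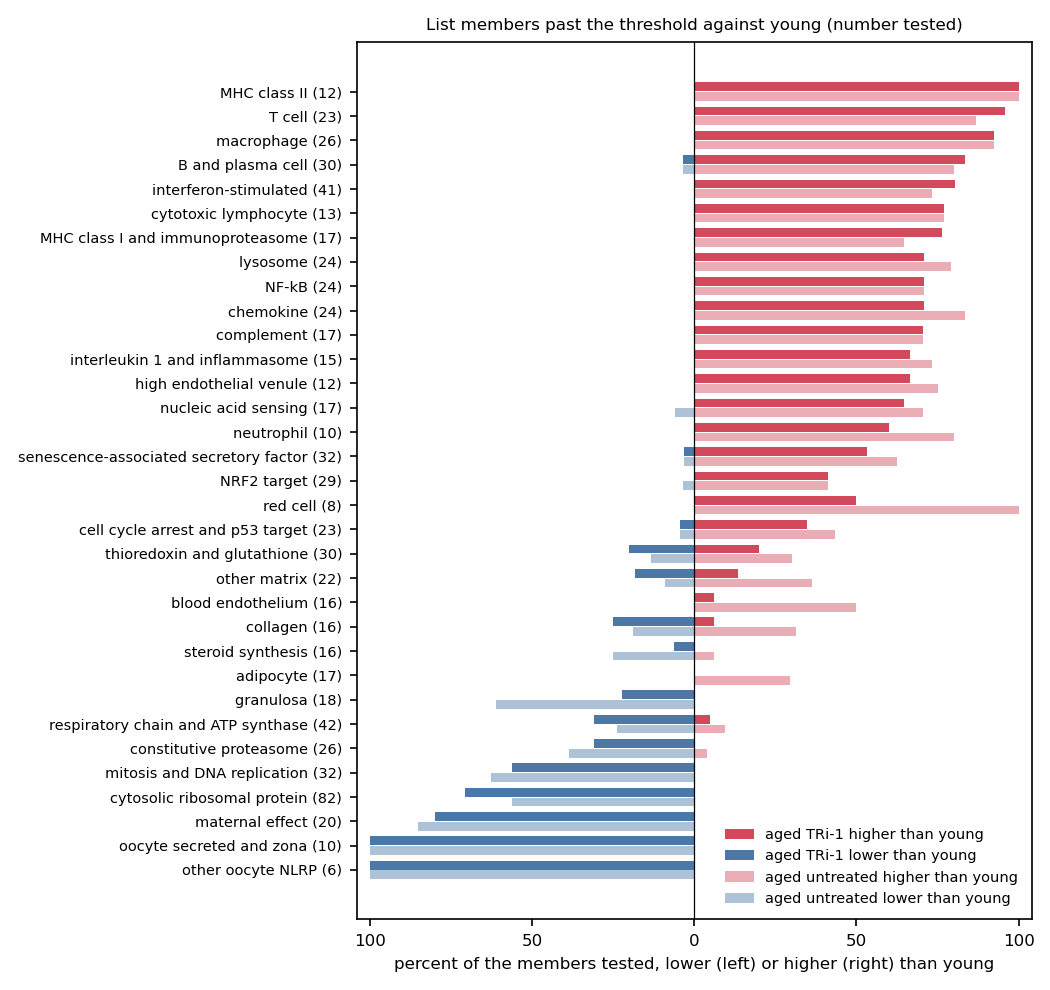
Bars give the percent of tested members of 33 gene lists that were higher (right, red) or lower (left, blue) than young, full colour for aged TRi-1 and pale for aged untreated; the number tested stands beside each name. Under TRi-1 all 12 MHC class II genes, 22 of 23 T cell genes and 24 of 26 macrophage genes lie on the right and all 10 oocyte secreted genes on the left, and the pale bars are longer for granulosa, red cell, blood endothelium and adipocyte genes.

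Interferon-stimulated genes were higher at 33 of 41 members under TRi-1 and at 30 in untreated aged ovary, with medians of 1.70 and 1.56. Many such genes carry an interferon-stimulated response element (ISRE) near their start. The promoters of 4 such genes, from 250 bases before to 50 bases after the RefSeq transcription start (GRCm38.p6, 5′ to 3′ on the gene's strand), are shown because these genes were among those that rose and because their windows hold the element; capitals mark matches to its core, GAAA, any 2 bases and again GAAA, on either strand, and overlapping matches run together.
Isg15 promoter, chr4:156200769-156201068, minus strand: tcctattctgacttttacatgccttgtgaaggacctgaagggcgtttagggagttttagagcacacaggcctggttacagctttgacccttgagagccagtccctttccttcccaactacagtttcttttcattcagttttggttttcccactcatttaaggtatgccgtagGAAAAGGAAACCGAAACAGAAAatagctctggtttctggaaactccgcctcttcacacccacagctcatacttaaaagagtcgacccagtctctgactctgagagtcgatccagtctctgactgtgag
Ifit3 promoter, chr19:34583279-34583578, plus strand: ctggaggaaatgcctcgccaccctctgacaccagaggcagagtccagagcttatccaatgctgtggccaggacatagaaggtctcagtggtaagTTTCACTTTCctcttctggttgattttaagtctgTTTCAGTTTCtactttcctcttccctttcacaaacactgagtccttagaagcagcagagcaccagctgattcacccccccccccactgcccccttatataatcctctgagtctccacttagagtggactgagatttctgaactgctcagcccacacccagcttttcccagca
Igtp promoter, chr11:58199306-58199605, plus strand: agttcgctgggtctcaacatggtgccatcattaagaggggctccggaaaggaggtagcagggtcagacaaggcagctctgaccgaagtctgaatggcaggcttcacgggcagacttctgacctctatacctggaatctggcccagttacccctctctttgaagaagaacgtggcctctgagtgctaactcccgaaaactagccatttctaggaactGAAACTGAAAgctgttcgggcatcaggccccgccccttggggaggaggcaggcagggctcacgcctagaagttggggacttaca
Cxcl10 promoter, chr5:92348840-92349139, minus strand: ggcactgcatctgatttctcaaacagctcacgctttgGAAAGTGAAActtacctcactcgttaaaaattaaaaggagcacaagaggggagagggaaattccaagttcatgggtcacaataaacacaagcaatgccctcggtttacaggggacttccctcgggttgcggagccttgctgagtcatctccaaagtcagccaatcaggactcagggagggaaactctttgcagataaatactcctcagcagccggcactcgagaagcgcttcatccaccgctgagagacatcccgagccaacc
The Isg15 window holds 3 overlapping matches starting 78 to 66 bases before the start site, Ifit3 holds 2 at -156 and -122, Igtp 1 at -34 and Cxcl10 1 at -213. Of 31 list members with a promoter in the table, 18 (58.1%) had a match, against 3.99% of 27025 genes with a promoter. The list was drawn up from genes known to respond to interferon, so this share describes the list. Among all genes with a promoter that were higher under TRi-1 than in young, 109 of 1308 (8.33%) had a match, against 461 of 11578 genes tested (3.98%). The share was 7.92% (90 of 1137) among genes higher in aged untreated ovary and also under TRi-1, and 2.86% (32 of 1117) among those higher in aged ovary that did not pass under TRi-1. A match is a run of letters and not a bound site.

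Isg15, a ubiquitin-like protein, had 11.5, 9.33, 11.9, 26.5 and 16.2 CPM in young and 75.5, 12.7, 61.5 and 43.4 CPM under TRi-1 (1.67 ± 0.41, adjusted p = 0.0076). TRi-1 replicate 2 lay within the young range and the other 3 above it, and the adjusted p was 0.064 without the 3 libraries highest in liver transcripts. Igtp, an interferon-inducible GTPase, had 23, 21.6, 18.8, 18.9 and 15.6 CPM in young against 509, 89.8, 311 and 407 CPM (4.07 ± 0.52, adjusted p = 5.9e-05), again lowest in replicate 2 but above all young libraries. Irf8, a transcription factor of myeloid cells, was 2.35 ± 0.23 higher, Ifi47 3.12 ± 0.38 and Irf1 2.27 ± 0.30. Ifit3 averaged 15.3 CPM in young, 54.1 in TRi-1 and 26.1 in untreated aged ovary, and its near copy Ifit3b makes its count uncertain. Genes that sense foreign or misplaced nucleic acids were higher at 11 of 17 (12 without treatment), among them Zbp1 (3.38 ± 0.47), Samhd1 (1.66 ± 0.24) and Tmem173, which encodes STING (1.44 ± 0.19). Cgas itself did not pass (0.56, adjusted p = 0.38).

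Chemokine genes were higher at 17 of 24 (20 without treatment), with a median of 3.08. Cxcl10, which draws activated T cells, had 2.66, 1.81, 0.518, 2.24 and 2.63 CPM in young libraries and 212, 12.8, 144 and 96.2 CPM in treated ones (5.83 ± 0.71, adjusted p = 4e-05). All 4 treated libraries lay above young, with replicate 2 the lowest. Ccl2, the chief monocyte attractant, was 3.88 ± 0.62 higher and Ccl4 5.31 ± 0.48. Cxcl2, a neutrophil attractant, averaged 0.0263 CPM in young, 4.89 in untreated aged and 0.424 in TRi-1 ovary, where it did not pass (adjusted p = 0.14).

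Il1b, the secreted inflammatory cytokine, had 1.23, 0.418, 0, 0.426 and 0 CPM in young and 16.1, 4.96, 8.72 and 7.25 CPM in TRi-1 ovary (4.29 ± 0.68, adjusted p = 0.00034). The untreated aged libraries held 18.6, 22.2, 87.0 and 35.4 CPM, all above the 4 treated ones, and the difference of -2.14 between the aged groups did not pass (adjusted p = 0.087). Il1rn, the antagonist of its receptor, was 3.83 ± 0.57 higher than young. Of 15 genes of interleukin 1 and the inflammasome 10 were higher (11 without treatment), but 5 of 14 without the 3 libraries highest in liver transcripts. Of 32 secreted factors linked to senescence, 17 were higher and 1 lower, with 20 and 1 in untreated aged ovary. Icam1, a leukocyte adhesion protein, was 2.98 ± 0.23 higher and Mmp12, the macrophage elastase, 3.23 ± 0.55. The lower gene was Igfbp5 (-1.47, adjusted p = 0.0024). Il6 had 0 counts in young, 9 in untreated aged and 4 in TRi-1 libraries and was not tested. NF-kB components and targets were higher at 17 of 24 in both aged groups, with Vcam1 at 2.47 ± 0.31, Nfkbiz at 1.89 ± 0.28 and Cd40 at 4.19 ± 0.64.

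Neutrophil genes divided the treated libraries. S100a8, an abundant calcium-binding protein of neutrophils, had 45.6, 15.3, 7.95, 38.3 and 2.76 CPM in young and 64.1, 505, 564 and 47.7 CPM under TRi-1 (3.74 ± 0.79, adjusted p = 0.003). Replicates 2 and 3 lay within the untreated aged range of 343 to 1119 CPM, and replicates 1 and 4 near the young maximum. S100a9 followed with 24.9, 230, 260 and 15.4 CPM in treated ovary (3.90 ± 0.90, adjusted p = 0.0055). Of 10 neutrophil genes 6 were higher under TRi-1 and 8 without it, and 3 were higher without TRi-1 replicate 3.

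**Figure D4:**
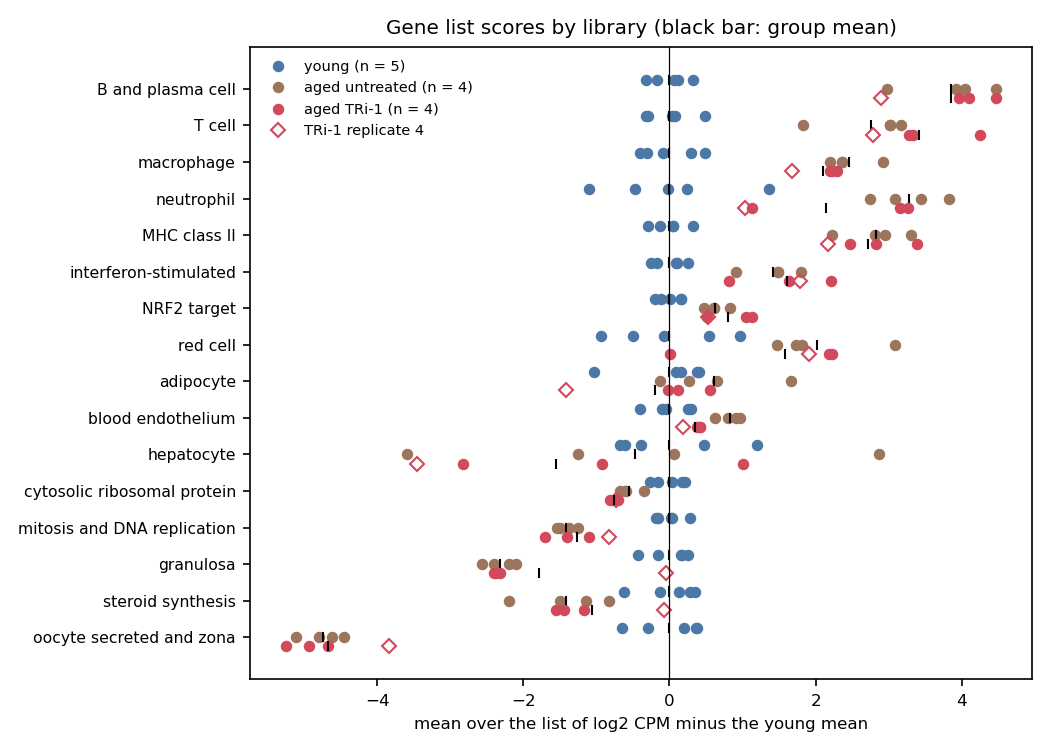
Each symbol is 1 library: the x axis is the mean over the list's genes of the log2 CPM minus its young mean, blue for young, brown for aged untreated, red for aged TRi-1 and an open diamond for TRi-1 replicate 4, with black bars at the group means. The diamond lies at -0.05 for granulosa genes while the other 3 TRi-1 libraries lie at -2.40 to -2.31, and the TRi-1 libraries split into 2 pairs for neutrophil genes.

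Txnrd1 encodes the enzyme that TRi-1 inhibits and lies at chr10:82833951-82897712 (GRCm38). It had 18.2, 14.2, 23.8, 23.3 and 22 CPM in young and 77.3, 24.0, 51.2 and 36.0 CPM in TRi-1 ovary. All 4 treated libraries lay above the highest young one, replicate 2 by the least, and the log2 difference was 1.21 ± 0.31 (adjusted p = 0.01). It did not pass without TRi-1 replicate 1, and the highest adjusted p over all alternatives was 0.085. Untreated aged ovary was 0.81 above young (adjusted p = 0.052), and the treated and untreated aged groups differed by 0.41 (adjusted p = 0.57). The transcript level says nothing of the enzyme's activity.

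Of 29 NRF2 target genes 12 were higher than young under TRi-1 and none lower. Untreated aged ovary had 12 higher and 1 lower, and no member differed between the 2 aged groups. Hmox1, which breaks down haem, had 10.7, 5.57, 12.3, 3.73 and 6.70 CPM in young and 56.7, 30.2, 85.9 and 25.8 CPM in treated ovary (2.68 ± 0.37, adjusted p = 0.00013). Untreated aged libraries held 65.0 to 96.3 CPM. Srxn1, which repairs overoxidised peroxiredoxins, was 2.77 ± 0.34 higher, and Fth1 and Ftl1, the ferritin chains, 1.69 ± 0.18 and 1.29 ± 0.18. Gclm, a subunit of the enzyme that limits glutathione synthesis, was 1.31 ± 0.30 higher (adjusted p = 0.005), while its partner Gclc did not pass (0.26, adjusted p = 0.5). Nqo1, a quinone reductase widely used as an NRF2 readout, had 2.25, 5.71, 3.46, 5.22 and 1.71 CPM in young and 6.84, 2.44, 7.20 and 5.10 CPM in treated ovary, which overlap (0.55 ± 0.44, adjusted p = 0.41). Some of these genes are also strong in macrophages, Hmox1 and the ferritins among them, and the part that macrophage numbers have in their rise was not tested.

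Of 30 thioredoxin and glutathione genes 6 were higher and 6 lower, with a median of 0.12, beside 10.9% and 10.1% of all genes tested. Untreated aged ovary had 9 higher and 4 lower, beside 18.5% and 16.4%. Under TRi-1 the lower count was 3 without TRi-1 replicate 1, TRi-1 replicate 3 or young replicate 2. It was 2 without the 3 libraries highest in liver transcripts. Prdx4 and Gpx7, thiol peroxidases of the endoplasmic reticulum, were lower by -1.23 ± 0.21 and -1.50 ± 0.24. Txn1, the substrate of the enzyme, had 102, 141, 77.1, 183 and 141 CPM in young against 151, 91.5, 168 and 123 CPM (0.05 ± 0.40, adjusted p = 0.95).

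Cdkn2a, which encodes the arrest protein p16 and the p53 activator ARF, had 1.23, 1.81, 0.518, 1.81 and 1.58 CPM in young and 8.57, 9.92, 7.28 and 7.65 CPM in TRi-1 ovary (2.56 ± 0.36, adjusted p = 0.00015). The treated libraries were alike and all above young, and untreated aged libraries had 4.43 to 7.53 CPM. Cdkn1a, which encodes the p53-induced inhibitor p21, had 14.9, 13.8, 27, 24.1 and 13.9 CPM in young, 21.6, 29.5, 25.5 and 22.7 CPM under TRi-1 and 31.9 to 59.1 CPM in untreated aged ovary. It did not pass under TRi-1 (0.41 ± 0.25, adjusted p = 0.26) and was higher in untreated aged ovary (1.17, adjusted p = 0.0016), but the difference between these 2 groups was -0.76 with an adjusted p of 0.16. Of 23 arrest and p53 genes 8 were higher and 1, Hmgb2, lower. The higher count was 5 without any of TRi-1 replicates 1 to 3, young replicate 1 or young replicate 5.

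Genes of mitosis and DNA replication were lower at 18 of 32 members and higher at none, with a median of -1.28 (20 lower and a median of -1.21 without treatment). Cenpe, a kinetochore motor, had 99.6, 97.4, 128, 51.9 and 112 CPM in young and 11.4, 5.72, 6.10 and 24.2 CPM in TRi-1 ovary (-3.05 ± 0.41, adjusted p = 9.3e-05). Ccnb1, the mitotic cyclin, fell by 2.68 ± 0.38 on the log2 scale, Ccne2 by 2.63 ± 0.38 and Cenpf by 2.78 ± 0.41. For Cenpe, Ccne2 and Cenpf the highest treated library was replicate 4, the one with granulosa transcripts. Promoters of many cell cycle genes carry the cell cycle genes homology region (CHR), the site of the DREAM complex. Top2a and Cdk1, chosen after their values were seen, fell by 2.30 and 2.39 on the log2 scale and are shown because their windows hold it; capitals mark TTTGAA on either strand, and neither motif searched contains the other.
Top2a promoter, chr11:99024140-99024439, minus strand: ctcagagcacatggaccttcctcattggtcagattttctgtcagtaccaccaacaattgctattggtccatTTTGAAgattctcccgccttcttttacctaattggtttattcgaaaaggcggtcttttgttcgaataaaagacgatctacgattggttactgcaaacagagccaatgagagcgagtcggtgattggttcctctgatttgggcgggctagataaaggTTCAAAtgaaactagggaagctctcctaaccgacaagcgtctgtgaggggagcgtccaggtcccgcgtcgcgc
Cdk1 promoter, chr10:69352863-69353162, minus strand: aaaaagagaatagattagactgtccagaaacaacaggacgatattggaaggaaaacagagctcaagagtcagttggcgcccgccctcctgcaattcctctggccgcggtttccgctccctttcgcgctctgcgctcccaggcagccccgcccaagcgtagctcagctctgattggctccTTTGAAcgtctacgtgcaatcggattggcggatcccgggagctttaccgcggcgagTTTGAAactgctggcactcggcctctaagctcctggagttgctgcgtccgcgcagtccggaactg
The Top2a matches start 179 and 23 bases before the start site and those of Cdk1 71 and 15 bases before it. Of 26 list members with a promoter 12 (46.2%) held TTTGAA, against 20.2% of all genes with one. The list was drawn up from known cell cycle genes, so this share describes the list. With a match, Mki67, Top2a, Cdk1, Aurka, Bub1b and Cenpf fell, and Ccnb2, Plk1, Cenpa, Kif11, Cdc20 and Mcm2 did not pass. Without a match, Ccnb1, Bub1, Cenpe, Birc5, Mcm7, Rrm1, Tyms and Nusap1 fell, and Ccne1, Mcm3, Mcm5, Mcm6, Pcna and Rrm2 did not pass. Among all genes lower under TRi-1 the share was 17.4% (203 of 1168), and among all genes tested 14.8%.

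Most oocyte transcripts tested were lower in TRi-1 ovary, many of them nearly gone and others by less. All 10 tested genes of the zona pellucida and secreted oocyte factors were lower, 16 of 20 maternal effect genes and all 6 further oocyte NLRP genes; untreated aged ovary had 10, 17 and 6. The fitted medians were -6.21, -5.55 and -7.28, or -5.61, -5.44 and -6.72 with members that had no count in a group set at their bound. Zp3, the zona protein that binds sperm, had 14.6, 18.7, 17.6, 19.6 and 21.2 CPM in young and 0, 0.504, 0 and 0.392 CPM under TRi-1 (-6.27 ± 0.99, adjusted p = 0.00035). Gdf9, a growth factor by which the oocyte drives granulosa cells, had 28.3, 49.8, 68.4, 52.4 and 58.9 CPM in young against 2.22, 1.35, 0.254 and 3.33 CPM (-4.86 ± 0.72, adjusted p = 0.00019). Gdf9 thus stayed above 0 in all 4 treated libraries.

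Nlrp5, a component of the oocyte's subcortical maternal complex, had 12, 16.3, 21.4, 23.7 and 18.0 CPM in young and no count in the treated libraries, at least 270-fold lower against a floor of 3 counts over the group. Gtsf1, a factor of the piRNA pathway, was at least 163-fold lower by the same floor. Elobl had 3 counts under TRi-1 and 1944 in young, a ratio of 722 (95% counting interval 247 to 3506). The remaining counts of several oocyte genes came from 1 library: H1foo, the oocyte linker histone, had 0, 0, 0 and 0.882 CPM in treated ovary, and Bmp15, Zp2 and Tcl1 likewise had counts in replicate 4 alone. Without that library H1foo was -11.91 from young and Bmp15 -10.25, in place of -7.79 and -6.90 with it. Of 6 germ cell and primordial follicle genes tested 3 were lower under TRi-1 and 4 in untreated aged ovary, beside 10.1% and 16.4% of all genes tested. Nobox, a transcription factor of primordial oocytes, had 162 counts in young and 2 under TRi-1, a ratio of 90.3 (24.6 to 752). Kit and its ligand Kitl, which granulosa and stromal cells also make or bear, did not pass (0.11 and 0.09). Many NLRP genes are close copies, so single members are uncertain.

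Granulosa genes were lower at 4 of 18 members under TRi-1, against 11 in untreated aged ovary, and at 11 when TRi-1 replicate 4 was left out. The list score, the mean log2 CPM of its genes relative to young, was -2.40, -2.31 and -2.38 in TRi-1 replicates 1 to 3 and -0.05 in replicate 4, with -0.43 to 0.26 in young and -2.56 to -2.10 in untreated aged ovary. Nr5a2, a nuclear receptor of granulosa and luteal cells, had 233, 140, 142, 95.2 and 257 CPM in young and 2.31, 5.13, 2.88 and 101.2 CPM in treated libraries. With all 4 it did not pass (-2.64 ± 0.91, adjusted p = 0.05, above the threshold before rounding); without replicate 4 it was -5.66 ± 0.61 (adjusted p = 1.7e-05). Inhba, the subunit of activin A and inhibin A, had 4.91, 8.41 and 3.98 CPM in replicates 1 to 3 and 707 in replicate 4, above the young range of 57.6 to 299. Its log2 difference was -0.02 with that library and -4.99 without it (adjusted p = 2.3e-05).

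Cyp19a1, the aromatase that makes oestradiol, had 1.84, 14.3, 12.1, 4.90 and 2.10 CPM in young and 0, 0.588, 0 and 45.9 CPM under TRi-1. The sign of its difference turned with 1 library, from 0.73 (adjusted p = 0.72) to -5.03 without replicate 4 (adjusted p = 0.0034). Esr2, the oestrogen receptor of granulosa cells, was lower with all 4 libraries (-3.71 ± 0.69, adjusted p = 0.0012), at 0.674, 0.757, 0.254 and 6.57 CPM against 13 to 35.5 CPM in young. Slc18a2 was lower in all 4, at 0, 0.168, 0.677 and 0.294 CPM against 19.5 to 31.8 CPM (-6.39 ± 0.54, adjusted p = 2.4e-06), so that the granulosa genes of replicate 4 were not all at the young level.

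Foxl2, a transcription factor that keeps granulosa identity and is also made in stroma, was among the list members that did not pass even without replicate 4. The others were Amhr2 (0.28), Gata4 (0.50), Gatm (0.97), Greb1 (-0.05), Kctd14 (-0.18) and Hsd17b1 (-2.63), given as log2 differences from young without that library. Foxl2 had 21.3, 15.7, 8.81, 10.3 and 17.2 CPM in young, 10.3, 11.4, 13 and 17.3 CPM in TRi-1 ovary and 3.99, 5.18, 2.37 and 6.46 CPM in untreated aged ovary. All 4 treated libraries lay within the young range and above every untreated aged one. It did not differ from young past the threshold (-0.18 ± 0.32, adjusted p = 0.74; -0.35 without replicate 4), and the difference between the aged groups, 1.53, did not pass either (adjusted p = 0.061).

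**Figure D5:**
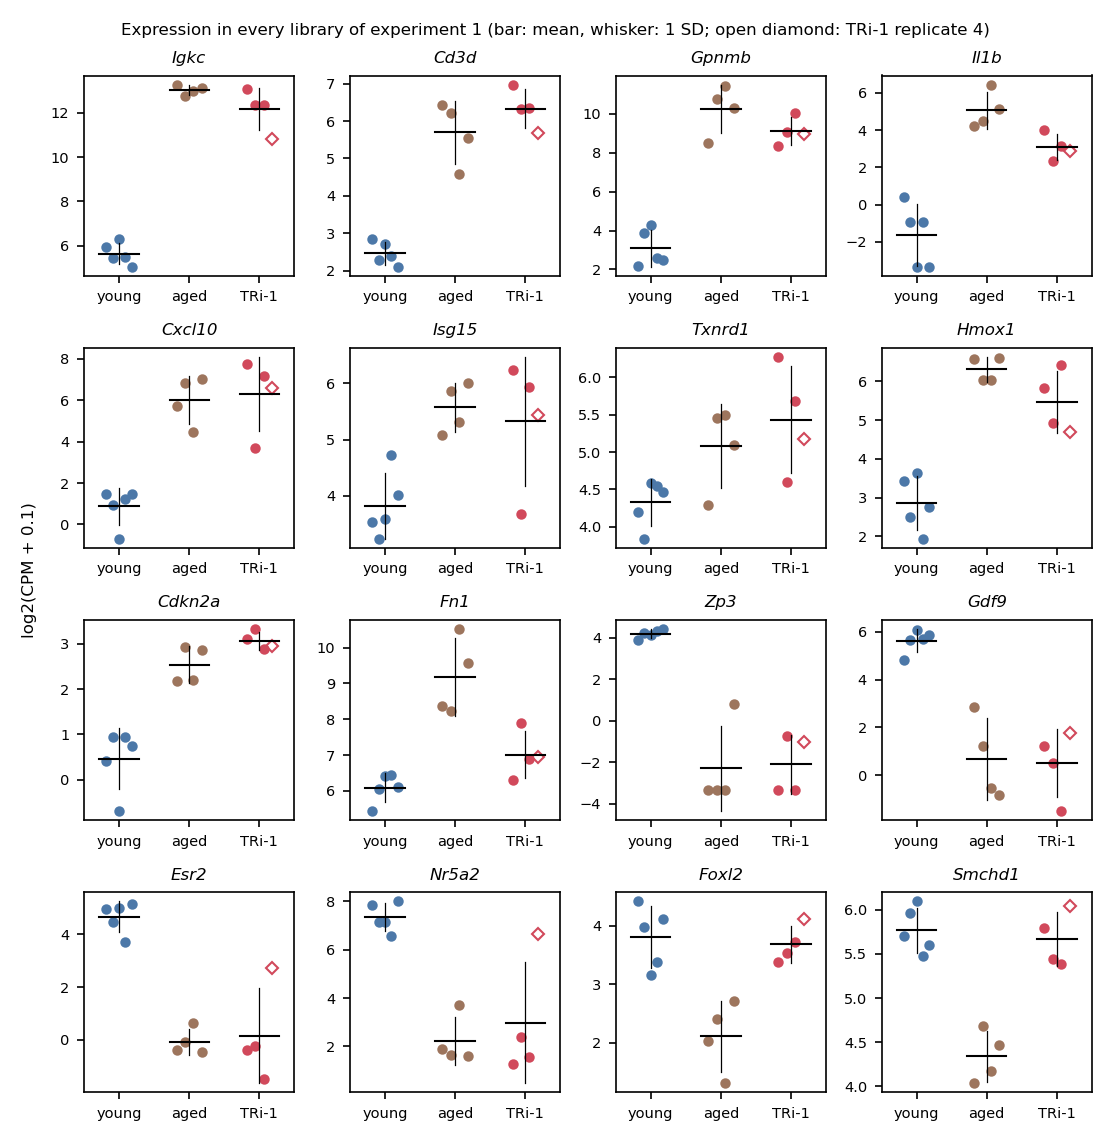
Each panel is 1 gene on a log2(CPM + 0.1) axis, with every library of young (blue, 5), aged untreated (brown, 4) and aged TRi-1 ovary (red, 4); black bars are means, whiskers 1 SD, and the open diamond is TRi-1 replicate 4. Immune genes and Cdkn2a are high in both aged groups, Zp3 and Gdf9 low in both, the diamond stands alone for Nr5a2 and Esr2, and Fn1, Foxl2 and Smchd1 lie nearer to young under TRi-1 than in untreated aged ovary.

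Steroidogenic genes had 1 of 16 members lower under TRi-1, Hsd3b1, which converts pregnenolone to progesterone (-1.39 ± 0.46, adjusted p = 0.041), against 4 lower and 1 higher in untreated aged ovary. Of all genes tested 10.1% were lower under TRi-1, and 16.4% were lower and 18.5% higher in untreated aged ovary. Hsd3b1 lost its call without TRi-1 replicate 1, 2 or 3 or young replicate 1, 2 or 5, and without TRi-1 replicate 3 the 1 lower member was another gene. The lower count was 0 in the other cases just named, 4 without TRi-1 replicate 4 or aged replicate 3, 3 without aged replicate 4, and 2 without aged replicate 1 or young replicate 3 or 4. Star, which carries cholesterol into mitochondria, had 412, 215, 140, 106 and 266 CPM in young and 95.7, 134, 86.1 and 117 CPM in treated ovary, overlapping ranges (-1.07 ± 0.47, adjusted p = 0.12). Cyp11a1, which makes pregnenolone, was at 84.2 to 703 CPM in young and 172 to 585 CPM under TRi-1 (0.06, adjusted p = 0.95). The theca and stroma list had Mgp, a calcification inhibitor (0.83 ± 0.17), and Bgn, a proteoglycan (0.84 ± 0.25), higher and Ogn lower (-0.96 ± 0.24) of 15 members, beside 10.9% higher and 10.1% lower of all genes tested. Bgn lost its call without TRi-1 replicate 2 or young replicate 4 or 5, which left 1 member higher, and the lower count was 2 without aged replicate 3.

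Collagen genes were 1 higher and 4 lower of 16, against 5 higher and 3 lower in untreated aged ovary. Of all genes tested 10.9% were higher and 10.1% lower under TRi-1, and 18.5% and 16.4% in untreated aged ovary. Col3a1, a fibrillar collagen, had 456, 490, 718, 723 and 658 CPM in young and 160, 382, 237 and 318 CPM under TRi-1 (-1.15 ± 0.29, adjusted p = 0.01), and Col1a2 was lower by -1.36 ± 0.38, a call lost without TRi-1 replicate 1 or 2. All treated libraries lay below young for Col3a1. The higher count was 2 without young replicate 3, and the lower count 2 without TRi-1 replicate 1 and 0 without the 3 libraries highest in liver transcripts. Of 22 other matrix genes 3 were higher and 4 lower, beside 10.9% and 10.1% of all genes tested. Leaving out TRi-1 replicate 1 or 3 brought the counts of this list to 1 and 1. Without young replicate 2, 3 or 4 the lower count was 2, and without young replicate 4 or 5 the higher count was 1. Thbs1, an adhesive matrix protein, fell by 1.61 ± 0.34 on the log2 scale (adjusted p = 0.0031).

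Fn1, fibronectin, chosen after its values were seen, had 43.2, 66.1, 84.5, 87.0 and 68.6 CPM in young, 79.1, 239, 118 and 122 CPM in TRi-1 and 330, 302, 1462 and 765 CPM in untreated aged ovary. The 3 groups were ordered with 1 overlap, the treated replicate 1 within the young range. Against young the treated group did not pass (1.00 ± 0.41, adjusted p = 0.099), and against untreated aged ovary it was lower by -2.36 (adjusted p = 0.039). That call was lost without any 1 of the 4 TRi-1 replicates, with log2 differences of -2.71 to -2.12 and adjusted p of 0.0504 to 0.133, and without aged replicate 3. Matrix proteases and their inhibitors were 8 higher and 1, Adamts5, lower of 17; the higher count was 2 without TRi-1 replicate 3, 3 without young replicate 2 and 5 without TRi-1 replicate 1 or 2 or young replicate 4.

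Of 16 blood endothelial genes 1 was higher under TRi-1 and 8 in untreated aged ovary, with medians of 0.29 and 0.85. Of all genes tested 10.9% were higher under TRi-1 and 18.5% in untreated aged ovary. None of the 16 differed between the 2 aged groups. Plvap, the diaphragm protein of fenestrated vessels, was the 1 higher under TRi-1 (1.66 ± 0.29, adjusted p = 0.00077), and 2 were higher without young replicate 3. No adipocyte gene of 17 passed under TRi-1, against 5 higher in untreated aged ovary. Dgat2, the last enzyme of triglyceride synthesis, chosen after its values were seen, was 33.7, 31.5, 63.8 and 31.1 CPM in untreated aged ovary and 12.4, 15, 4.23 and 6.18 CPM in TRi-1 ovary, a difference of -2.08 (adjusted p = 0.03), with 9.21 to 15.7 CPM in young. That call was lost without TRi-1 replicate 1, TRi-1 replicate 4 or aged replicate 3. The adipocyte list score was -1.42 in TRi-1 replicate 4 and -0.02 to 0.55 in the other 3 treated libraries, with -1.04 in young replicate 1 and 0.09 to 0.40 in the other young ones. Red cell genes were higher at 4 of 8 members under TRi-1 and at all 8 in untreated aged ovary. That count ran from 2, without TRi-1 replicate 1 or 3 or young replicate 1 or 2, to 8 without young replicate 5, and the haemoglobin share of TRi-1 replicate 2 lay within the young range.

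Genes of protein synthesis were lower. Of 82 cytosolic ribosomal protein genes 58 were lower under TRi-1 and none higher, with a median of -0.73, against 46 lower and a median of -0.57 in untreated aged ovary. Rpl23a, a protein of the large subunit, had 3427, 5984, 6824, 4187 and 3825 CPM in young and 1268, 1124, 1151 and 1752 CPM in treated ovary (-1.87 ± 0.22, adjusted p = 3.9e-05). Ribosomal protein transcripts took 30.8% of all counts in young, 20.8% in TRi-1 and 20.7% in untreated aged ovary. Ribosomal protein genes have many processed pseudogenes, so single genes are uncertain. Processed pseudogenes of all genes together took 1.69%, 1.13% and 0.715% of counts in the same order.

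Respiratory chain and ATP synthase genes were 2 higher and 13 lower of 42 (4 and 10 without treatment), with Atp5c1 at -1.26 ± 0.19 and Ndufa9 at -1.16 ± 0.17 below young and Uqcrc1 1.49 ± 0.21 above it. The higher count was 1 without any 1 of the TRi-1 or young libraries. Of 26 constitutive proteasome genes 8 were lower, or 5 without TRi-1 replicate 1, led by Psmc6 (-1.03 ± 0.20). Among 15 heat shock genes, of the cytosol apart from the mitochondrial chaperonin pair Hspe1 and Hspd1, 4 were lower and 1 higher. Hspe1 and Hspd1 fell by 1.29 ± 0.19 and 0.82 ± 0.17, and the cytosolic Hsp90aa1 and Hspa8 by 0.80 ± 0.22 and 0.70 ± 0.15. The higher one, Hspb8 (0.74 ± 0.22), lost its call without TRi-1 replicate 1 or 2 or young replicate 2 or 5, and 2 members were higher without aged replicate 3. Of 17 endoplasmic reticulum chaperone genes 4 were lower and 1 higher under TRi-1, beside 10.1% and 10.9% of all genes tested. Untreated aged ovary had 6 lower and 3 higher, beside 16.4% and 18.5%. Herpud1, the higher one under TRi-1, was 1.39 above young. Hsp90b1, a chaperone of this list, had 352, 416, 713, 341 and 404 CPM in young and 120, 103, 80.2 and 239 CPM under TRi-1 (-1.71 ± 0.31, adjusted p = 0.00096). Slc3a2, an amino acid transporter chain of the ATF4 response, was 1.03 ± 0.29 higher, and 3 of 17 genes of that list were higher, beside 10.9% of all genes tested. That count was 0 without TRi-1 replicate 1 or 3, and 1 without TRi-1 replicate 2, aged replicate 3 or young replicate 2 or 4.

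Of the 67 genes that differed between treated and untreated aged ovary, 28 were higher and 39 lower under TRi-1. For the 28 higher ones the median log2 difference from young was -0.33 in treated and -1.56 in untreated aged ovary, and for the 39 lower ones it was 0.20 and 1.31; since the aged libraries enter the choice, the untreated value is a description. Smchd1, a chromatin protein of X inactivation, had 52.0, 62.1, 68.2, 44.3 and 48.4 CPM in young, 55.2, 43.4, 41.8 and 65.8 CPM under TRi-1 and 16.3, 25.6, 18.0 and 22 CPM in untreated aged ovary. It was 1.33 higher than in the latter (adjusted p = 0.026) and did not differ from young past the threshold (-0.09 ± 0.20, adjusted p = 0.79). Cog2, a Golgi tethering subunit, held 31.2 to 44.9 CPM under TRi-1, 37.5 to 40.9 CPM in young and 14.7 to 21.1 CPM in untreated aged ovary (1.10, adjusted p = 0.03). Both calls, like all 67, were lost without TRi-1 replicate 1, TRi-1 replicate 4 or aged replicate 3.

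On the lower side, Cuta had 41.5, 31.0, 29.4 and 27.5 CPM in TRi-1 ovary against 57.5 to 93.8 CPM in untreated aged ovary and 22.7 to 32.0 CPM in young (-1.31 between the aged groups, adjusted p = 0.026). Renbp, a renin-binding epimerase, was 16.6 to 20.4 CPM under TRi-1, 34.8 to 43.9 CPM in untreated aged and 10.9 to 17.0 CPM in young ovary (-1.12, adjusted p = 0.03). Anxa11, an annexin, lay between: 65.8, 58.4, 57.1 and 41.6 CPM under TRi-1, 112 to 203 CPM in untreated aged ovary and 18.9 to 35.8 CPM in young. It was lower than in untreated aged ovary (-1.40, adjusted p = 0.03) and higher than in young (1.09 ± 0.22, adjusted p = 0.0025). The 3 calls between the aged groups were lost without the same 3 libraries in turn; without TRi-1 replicate 2 those of Cuta, Renbp and Anxa11 had adjusted p of 0.0504, 0.0504 and 0.0565, and without TRi-1 replicate 3 of 0.0488, 0.0544 and 0.0544.

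The base composition of transcripts moved with these calls. The last 1000 nucleotides had a median GC content of 45.6% over all genes tested, 40.85% for the 28 genes higher and 53.1% for the 39 lower under TRi-1 than in untreated aged ovary. Against young the medians were 47.4% and 42.8% for genes higher and lower under TRi-1, and 48.9% and 42.2% in untreated aged ovary. The log2 difference between the genes with the highest and the lowest GC (the top and bottom 1 in 5) was -0.48 to -0.26 in young, 0.07 to 0.69 in untreated aged and -0.27 to 0.45 in TRi-1 libraries. With GC and length in the fit, 26 of the 67 genes were still called. No call of the 67 was made without TRi-1 replicate 1, TRi-1 replicate 4 or aged replicate 3, or in a fit of those 2 groups alone, while all 67 kept their sign in each of these fits.

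Some differences from young were called under TRi-1 and not in untreated aged ovary: 225 genes higher and 344 lower. For 3 of them the 2 aged groups differed past the threshold. Nnat, a small membrane proteolipid, had 80.8, 103, 102, 71.3 and 108 CPM in young, 46.6, 22.9, 48.9 and 28.4 CPM under TRi-1 and 68.2 to 265 CPM in untreated aged ovary; it was lower than in young (-1.34 ± 0.35, adjusted p = 0.012) and than in untreated aged ovary (-1.95, adjusted p = 0.037). Mfap5, a microfibril protein, was lower than in both (-0.84 ± 0.26 and -1.36, adjusted p = 0.031 and 0.042), and Gm8995 higher than in both (1.13 ± 0.25 and 1.37, adjusted p = 0.0048 and 0.042). Mfap5 lost its call against young without TRi-1 replicate 1, 2 or 3 or young replicate 2, 3 or 4. The calls of all 3 genes between the aged groups were lost without TRi-1 replicate 1, TRi-1 replicate 4 or aged replicate 3. Nr1d1, a circadian repressor, was higher in untreated aged ovary than in young (0.65, adjusted p = 0.031) and lower under TRi-1 (-0.66 ± 0.23, adjusted p = 0.048), at 21.2, 21.7, 16.3 and 15.9 CPM against 24.7 to 33.9 CPM in young. The latter call was lost without any 1 of the TRi-1 replicates, aged replicate 4 or young replicate 2, 3 or 4, and the time of day of sampling is not given in the sources used here.

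Of 21 hepatocyte genes tested 1 was lower under TRi-1 and none higher, of 19 oviduct and uterine genes 3 were higher, of 5 lung genes 1, Napsa, which macrophages also make, and of 8 muscle genes 1 was lower, with a median of -1.20. Of all genes tested 10.9% were higher and 10.1% lower. The hepatocyte call was lost without TRi-1 replicate 2, 3 or 4 or young replicate 5, and 1 hepatocyte gene was higher without aged replicate 3. No gene of 12 for smooth muscle and pericytes and none of 2 for kidney passed, but 1 smooth muscle gene was higher without TRi-1 replicate 1 or young replicate 3 and 1 lower without TRi-1 replicate 4 or young replicate 4. Of 18 circadian genes 2 were higher and 1, Nr1d1, lower, beside 10.9% and 10.1% of all genes tested. The higher count was 0 without TRi-1 replicate 3 and 1 without TRi-1 replicate 2 or young replicate 5, and the lower count was 0 without any 1 of the 4 TRi-1 replicates, aged replicate 4 or young replicate 2, 3 or 4. Bhlhe41, a clock repressor, had 3.99, 3.34, 7.26, 7.46 and 6.18 CPM in young and 12.6, 13.5, 22.9 and 9.80 CPM in treated ovary (1.38 ± 0.35, adjusted p = 0.011; 0.054 without TRi-1 replicate 3). Immediate early genes, which respond to growth signals and to handling of tissue, were higher at 5 of 21 (of all genes tested, 10.9% were higher), and at 3 without TRi-1 replicate 3. Ier5, the member with the smallest p, had 26.7, 27.8, 22.3, 18.9 and 32.9 CPM in young and 98.1, 73.8, 105 and 72.1 CPM under TRi-1 (1.76 ± 0.19, adjusted p = 1.8e-05), without overlap.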

How the data were processed

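The authors deposited 1 table of gene-level counts for 51789 gene IDs, made with RSEM 1.2.3 on the mm10 build per the submitters' processing notes, which also name DESeq2; 51596 IDs were matched to GENCODE M21 for symbols, positions and GC content. The counts come from QuantSeq libraries, so they stand for the 3′ ends of transcripts. The 13 libraries of the first experiment were fitted with edgeR 4.0.16 (R 4.3.3, TMM scaling, the default filter on low counts, 3 group means, quasi-likelihood F test, Benjamini-Hochberg adjustment over all genes tested, threshold 0.05); the second experiment was fitted on its own. The untreated aged and young groups appear in more than 1 comparison. Standard errors were derived from the F statistic of each contrast. Counts per unit of TMM-scaled library size are given as CPM; list scores use log2 CPM with a prior count of 2. Counting intervals (95%) and the floor of 3 counts cover counting error only. The fit was tested on simulated data. No 2 libraries of a group were copies of each other.

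The members and the 52 gene lists were chosen with earlier results of these data known, and each list is described by counts and medians with no set test. Named genes are the 12 largest rises and falls without overlap between groups and with a mean of at least 5 CPM, up to 4 members with the smallest p per list, 21 fixed genes, and the genes with the smallest p, up to 8 per direction, among those that differed between the aged groups. Members named because they did not pass or moved against their list, and Ifng, C3, Ifit3, Cxcl2, Kit, Kitl, Top2a, Cdk1, Fn1, Dgat2, Inhba, Inha, Cyp11a1, were chosen after their values were seen. Alternatives were DESeq2 1.42.0, limma 3.58.1 (voom), other scalings, filters and sample sets, a replicate block and each replicate left out; 3 were added after seeing the data: a GC and length offset, and 2 that leave out libraries. The 4 auranofin-treated libraries entered the fits of the second experiment, except that of only the groups compared, and the fit of all 27. There they took part in the filter, the scaling and the estimate of the spread, and no comparison of theirs is given.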

Additional observations from a re-analysis of the deposited data

Results flagged for a closer look

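A library was singled out where its gap to the nearest other library of its group, over the group's range, passed Dixon's critical value for its group size. This was done for the list scores and the genes printed by library, in young and TRi-1 ovary. For genes the gap and range were taken on log2 CPM, while the levels below are given as CPM. It singled out a library in 12 of 172 groups, where chance at about 1 in 20 gives 8.6, so the number of cases is near that of chance. The groups share libraries and genes, and some genes were chosen after their values were seen, so 8.6 is a rough guide only. In TRi-1 ovary every case but the red cell score of replicate 2 was in replicate 4.

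TRi-1 replicate 4 stood apart for several lists. Its granulosa score was -0.05 against -2.40 to -2.31 in the other 3 treated libraries, and its Inhba level 707 CPM against 3.98 to 8.41 CPM; Inhba was chosen after its values were seen, so that its level is a description. Its score for oocyte NLRP genes was -4.15 against -5.32, where the other 3 share the lowest score that libraries with no count can have, so any count would stand apart. Its score for oviduct and uterine genes was 1.04 against 0.29 to 0.37. Its macrophage score was 1.67 against 2.20 to 2.30 and its blood endothelial score 0.19 against 0.38 to 0.42. TRi-1 replicate 2 had a red cell score of 0.0 against 1.90 to 2.22.

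Among young libraries, replicate 1 had an NF-kB score of 0.24 (others -0.10 to -0.02) and an adipocyte score of -1.04 (others 0.09 to 0.40). Replicate 4 had a high endothelial venule score of 0.24 (others -0.07 to -0.05). Replicate 3 had 0.518 CPM of Cxcl10 (others 1.81 to 2.66) and 713 CPM of Hsp90b1 (others 341 to 416).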

How the results depend on the processing

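The count of 3371 genes that differed between TRi-1 and young ovary was within 1.5 times of itself under 23 of 25 alternatives. It was 2229 with a replicate block (1167 higher, 1062 lower) and 1975 without the 3 libraries highest in liver transcripts (1032 higher, 943 lower), where 1702 age differences were shared. Leaving out 1 replicate gave 2383 to 3710 genes, 1253 to 1885 higher and 1130 to 1825 lower, with 2098 to 2919 shared age differences of the first experiment and 953 to 1201 of the second, and 4794 to 5511 age differences in all. Age genes of the second experiment also called under TRi-1 numbered 1821 of 2598 with limma-voom, a share of 70.09% against 70.11%.

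The 67 genes that differed between the aged groups became 580 with DESeq2, 30 with the GC and length offset, 2 with all 27 libraries, 173 at a mean of at least 5 CPM, 167 with no filter, 1 with the replicate block, 0 with only the groups compared, 0 without the 3 libraries highest in liver transcripts, and 0 to 164 when 1 replicate was left out. The cause was not tested. Same-numbered TRi-1 and young libraries correlated at -0.28 to -0.09 in their deviations from the group means, and 0 of 4 correlated best with their own number, so the numbers were not taken as pairs and the block is given as an alternative only.

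Of 184 named genes that differed from young, 140 did so in every alternative that tested them. Cyp19a1 changed sign, from -5.03 without TRi-1 replicate 4 to 1.16 without young replicate 2. Genes with few counts, such as Il6 and Amh, could not be tested at this depth.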
